A study of Mus musculus with 12 samples.

Results

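Small nucleolar RNAs (snoRNAs) are short guide RNAs that direct chemical modification of ribosomal and other RNAs, and in mammals most of them are cut out of the introns of longer host transcripts. Gas5 and the genes named Snhg (small nucleolar RNA host gene) are hosts whose spliced transcripts code for no known protein. The 9 genes described here, chosen by symbol from the 56953 genes listed in each count table, are Gas5, Snhg1, Snhg3, Snhg5, Snhg6, Snhg8, Snhg11, Snhg12 and Snhg15. Each was present under its symbol in both tables, and all 9 passed the filter on low counts.

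Poly(A)-selected RNA of mouse spinal cord was sequenced in 4 groups of 3 animals: controls and Ddx20 conditional knockouts (cKO), each labelled 4 weeks or 4.5 weeks. For the cKO mice these are times after tamoxifen, and the controls carry the same time labels. Ddx20 encodes a DEAD-box helicase of the SMN complex, which assembles the small nuclear RNA particles of the spliceosome. In the cKO mice a floxed Ddx20 allele (Ddx20flox/flox) was combined with Plp-CreER, a tamoxifen-dependent Cre recombinase driven by the promoter of the myelin gene Plp, which is active in oligodendrocytes and Schwann cells. RNA came from the tissue as a whole, so cells that never expressed Cre contributed to every value; the alleles carried by the controls, their tamoxifen treatment and the animals' ages are not given in the sources used here. Since the tissue was measured in bulk, a shift in the number of cells of a type and a shift in RNA per cell cannot be told apart in any comparison below.

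Totals ran from 33104560 to 47677267 estimated counts per library, and the 9 host genes together took 0.0841% to 0.145% of them. The targeted transcript showed no fall in the cKO group at either time: Ddx20 stood 0.03 lower on the log2 scale at 4 weeks (edgeR adjusted p = 0.84) and 0.33 higher at 4.5 weeks (edgeR adjusted p = 0.013), so the groups below are named as labelled. Sexes were not balanced: the 3 controls of 4 weeks and library 3 of the 4-week cKO group had almost no Xist, whereas cKO libraries 1 and 2 of 4 weeks and all 6 libraries of 4.5 weeks had it. The spinal cord label held, with all 12 neuronal and all 8 oligodendrocyte markers counted in every library. Levels are given as CPM, each library's count of a gene divided by its TMM-scaled total and written per 1000000 counts. Summed neuronal markers were 11720 to 13229 CPM in controls and 10416 to 11197 CPM in cKO at 4 weeks, against 14583 to 14871 and 5031 to 5708 CPM at 4.5 weeks. Summed oligodendrocyte markers went from 32202 to 34758 CPM in controls to 13763 to 18752 CPM in cKO at 4 weeks, and from 29396 to 29859 to 10202 to 11139 CPM at 4.5 weeks. Markers of microglia and macrophages (7 genes, none at 0) summed to 319 to 339 CPM in controls and 867 to 1472 CPM in cKO at 4 weeks, and to 280 to 293 and 5149 to 5782 CPM at 4.5 weeks. The part that these shifts in marker levels play in the host gene results was not tested. In the 4.5-week controls, library 1 held more sensory ganglion markers than the others (237 CPM summed) and library 2 more skeletal muscle markers (115 CPM). At 4 weeks the sensory ganglion markers summed to 107 to 118 CPM in controls and 142 to 199 CPM in cKO, so they differed with genotype there. Their part in the host gene results was not tested either.

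The exons of such host genes are usually less conserved than the snoRNAs in their introns, and splicing is what releases the snoRNA from the precursor. Many of their transcripts start with a 5′ terminal oligopyrimidine (TOP) run, a C followed by further pyrimidines, which they share with the messenger RNAs of ribosomal proteins and whose translation the mTOR kinase controls. Several of them, Gas5 above all, carry short reading frames that recruit ribosomes, so that their spliced RNA is degraded by nonsense-mediated decay and rises when translation or decay is blocked. Gas5 takes its name, growth arrest specific, from such a rise in arrested cells.

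In the GENCODE M21 annotation, 31 snoRNA genes lie on the same strand within the spans of the 9 hosts. Gas5 held 9 of them, Snhg1 held 8, Snhg12 held 5, Snhg3, Snhg5 and Snhg11 held 2 each, and Snhg6, Snhg8 and Snhg15 held 1 each. Box C/D snoRNAs guide ribose methylation and are recognised by a C box near the 5′ end and a D box near the 3′ end; box H/ACA snoRNAs guide pseudouridylation and end in an ACA placed 3 bases before the 3′ end. A search for TGATGA in the first 20 bases with CTGA in the last 15 bases found 16 snoRNAs with C/D boxes, and ACA in its 3′ place was found in 7. The other 8 matched neither search, which says only that these letters are not at those places. Gas5, Snhg1, Snhg5 and Snhg6 thus carried only C/D matches, Snhg3, Snhg8 and Snhg15 only ACA matches, and Snhg12 both kinds; the 2 snoRNAs of Snhg11, each 133 bases long, matched neither. Shown for 4 hosts whose transcripts rose at both times is 1 snoRNA each, C/D for Gas5 and Snhg5 and H/ACA for Snhg8 and Snhg15, 5′ to 3′ as in GENCODE M21, with the boxes found in capitals.
Snord47 of Gas5: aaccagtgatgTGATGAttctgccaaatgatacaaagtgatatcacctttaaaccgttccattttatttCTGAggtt
Snord50a of Snhg5: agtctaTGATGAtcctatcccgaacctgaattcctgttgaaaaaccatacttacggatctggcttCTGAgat
Snora24 of Snhg8: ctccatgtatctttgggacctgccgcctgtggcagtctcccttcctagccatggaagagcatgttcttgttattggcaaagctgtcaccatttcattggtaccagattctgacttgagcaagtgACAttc
Snora9 of Snhg15: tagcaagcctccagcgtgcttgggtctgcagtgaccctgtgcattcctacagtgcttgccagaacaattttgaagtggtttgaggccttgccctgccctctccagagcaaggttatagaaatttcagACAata

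The start sites show which hosts have a TOP-like start in the annotation. RefSeq start windows (build GRCm38.p6) were matched by symbol for 8 of the 9 members, and a run was counted where a C followed by at least 4 pyrimidines (C or T), on the gene's own strand, began within 10 bases of the annotated start. Such a run was found in 5 of the 8 members. It was found in 34.4% of all genes with a window and in 39 of 61 ribosomal protein genes (63.9%). The 50 bases from 20 before the start are printed 5′ to 3′ on the gene's strand, with the run in capitals; Gas5 has 2 annotated starts.
Gas5, chr1:161034581-161034630, plus strand: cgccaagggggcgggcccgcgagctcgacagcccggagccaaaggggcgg
Gas5, chr1:161035146-161035195, plus strand: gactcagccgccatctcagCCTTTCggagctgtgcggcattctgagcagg
Snhg1, chr19:8723467-8723516, plus strand: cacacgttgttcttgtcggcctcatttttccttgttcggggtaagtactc
Snhg3, chr4:132353657-132353706, minus strand: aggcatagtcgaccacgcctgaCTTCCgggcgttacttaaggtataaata
Snhg5, chr9:88522868-88522917, minus strand: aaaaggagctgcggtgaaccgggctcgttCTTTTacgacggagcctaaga
Snhg8, chr3:123508307-123508356, minus strand: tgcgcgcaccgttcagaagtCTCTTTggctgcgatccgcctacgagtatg
Snhg11, chr2:158375693-158375742, plus strand: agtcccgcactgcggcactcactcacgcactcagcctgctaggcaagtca
Snhg12, chr4:132308658-132308707, plus strand: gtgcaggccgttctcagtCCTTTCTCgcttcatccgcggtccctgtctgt
Snhg15, chr11:6528731-6528780, minus strand: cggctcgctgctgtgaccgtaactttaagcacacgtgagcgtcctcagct
In Snhg8 the run began on the annotated first base, and in the second Gas5 window on the base before it. Snhg15, the member with the largest fold change below, had no such run in this window, and neither had Snhg11.

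The comparison of cKO with control asks how these transcripts in the cord differ between the libraries labelled cKO and the controls of the same time. At 4 weeks 7 of the 9 host genes were higher in the libraries labelled cKO and none was lower (edgeR quasi-likelihood test, Benjamini-Hochberg adjusted p under 0.05 over the 19278 genes tested). At 4.5 weeks all 9 were higher. Of all genes tested, 20.1% were called higher and 17.2% lower at 4 weeks, and 33.3% higher and 32.6% lower at 4.5 weeks. The median log2 fold change of the members was 0.73 at 4 weeks and 0.99 at 4.5 weeks, beside 0.01 and 0.02 for all genes tested. No member was lower at an unadjusted p under 0.05 either, nor by DESeq2 or limma-voom. Counted by libraries, 7 members at 4 weeks and 9 at 4.5 weeks had all 3 cKO libraries above all 3 controls, as 24.1% and 36.8% of all genes tested did; none had them all below, as 23.1% and 35.6% did.

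**Figure D1:**
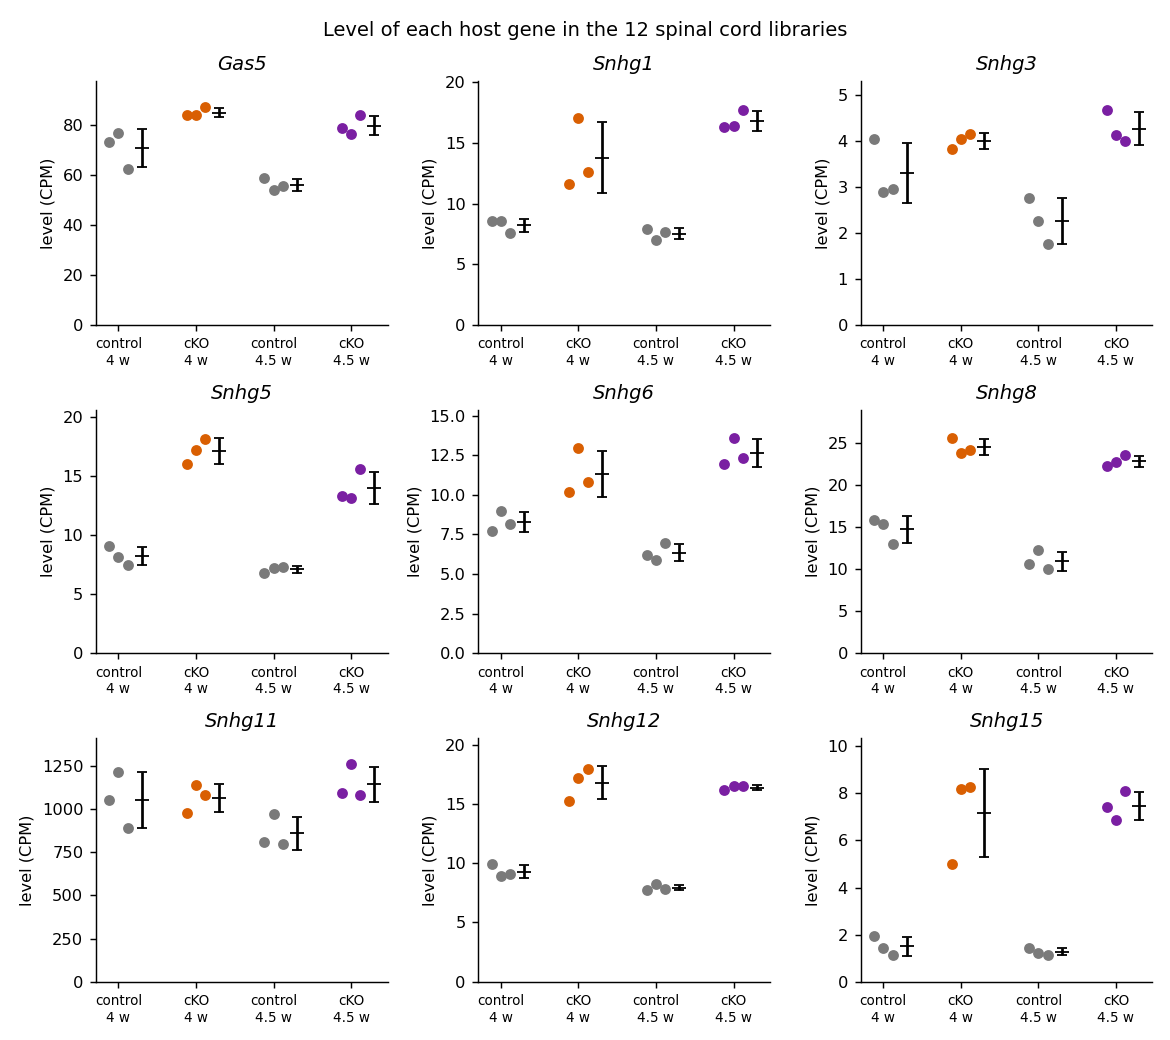
Level of each host gene in CPM (vertical axis, linear, from 0) in the 12 libraries, by group; points are libraries 1 to 3 from left to right, and the bar gives the mean and SD of the 3. In the 4.5-week groups every cKO point lies above every control point in all 9 panels, whereas the 4-week groups overlap for Snhg3 and Snhg11.

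Among the hosts of C/D snoRNAs, Gas5 was the most abundant transcript. It read 73.4, 77.1 and 62.3 CPM in the 4-week controls and 83.9, 84.0 and 87.2 CPM in the 4-week cKO libraries. At 4.5 weeks the controls had 58.8, 54.0 and 55.6 CPM and the cKO libraries 78.8, 76.6 and 84.0 CPM. The cKO libraries thus lay above the controls at both times, and the controls of 4.5 weeks below those of 4 weeks. Gas5 rose by 0.26 ± 0.073 (SE) on the log2 scale at 4 weeks (edgeR adjusted p = 0.014) and by 0.51 ± 0.073 at 4.5 weeks (edgeR adjusted p = 4.5e-05), the smallest change but one at both times. The 4-week call was lost without cKO library 3 (edgeR adjusted p = 0.051, range over all settings 0.0067 to 0.081) and with a term for sex (0.062). With that term the log2 fold change was 0.30, and sex varied within the 4-week cKO group only.

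Snhg5, which carries Snord50a and Snord50b, rose at both times. Its controls of 4 weeks had 9.06, 8.18 and 7.47 CPM and its cKO libraries 16.0, 17.3 and 18.1 CPM. At 4.5 weeks the controls had 6.78, 7.21 and 7.34 CPM and the cKO libraries 13.3, 13.2 and 15.6 CPM. No cKO library came near a control, and the log2 fold change was 1.06 ± 0.10 at 4 weeks (edgeR adjusted p = 9.9e-06) and 0.98 ± 0.11 at 4.5 weeks (edgeR adjusted p = 3e-06).

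Snhg1, the host with the classical chain of C/D snoRNAs in its introns, had a less even rise. Controls of 4 weeks had 8.54, 8.52 and 7.60 CPM and cKO libraries 11.6, 17.1 and 12.6 CPM, library 2 standing apart. At 4.5 weeks the values were 7.93, 7.03 and 7.61 CPM in controls and 16.3, 16.4 and 17.7 CPM in cKO. The log2 fold change was 0.75 ± 0.13 at 4 weeks (edgeR adjusted p = 0.00085) and 1.16 ± 0.13 at 4.5 weeks (edgeR adjusted p = 5.5e-06).

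Snhg6, host of Snord87, showed a similar spread in the 4-week cKO group. Its levels were 7.70, 8.95 and 8.16 CPM in controls and 10.2, 13.0 and 10.8 CPM in cKO libraries at 4 weeks. They were 6.20, 5.91 and 6.94 CPM in controls and 11.9, 13.6 and 12.3 CPM in cKO libraries at 4.5 weeks. Snhg6 rose by 0.45 ± 0.12 on the log2 scale at 4 weeks (edgeR adjusted p = 0.0094) and by 0.99 ± 0.12 at 4.5 weeks (edgeR adjusted p = 8.7e-06). The call at 4 weeks was lost without cKO library 2 (edgeR adjusted p = 0.051, range over all settings 0.0026 to 0.12) and with a term for sex (0.12). With that term the log2 fold change was 0.38.

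Hosts of H/ACA snoRNAs gave both the strongest and some of the weakest changes. Snhg15, host of Snora9 and a short-lived RNA known to respond to cell stress, was the lowest member in controls and changed most. Its level was 1.95, 1.45 and 1.15 CPM in the 4-week controls and 5.02, 8.20 and 8.26 CPM in the 4-week cKO libraries. At 4.5 weeks controls had 1.43, 1.22 and 1.14 CPM and cKO libraries 7.43, 6.87 and 8.08 CPM. All cKO values exceeded all control values, with cKO library 1 of 4 weeks below the other two. The rise was 4.71-fold at 4 weeks (log2 2.24, 95% interval 1.74 to 2.74; edgeR adjusted p = 1.4e-05) and 5.89-fold at 4.5 weeks (log2 2.56; edgeR adjusted p = 6.6e-07). In the same 4-week cKO library 1 the microglia and macrophage markers summed to 867 CPM, against 1472 and 1438 CPM in libraries 2 and 3.

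Snhg8, host of Snora24, rose evenly. It had 15.9, 15.3 and 12.9 CPM in controls and 25.5, 23.7 and 24.1 CPM in cKO libraries at 4 weeks. At 4.5 weeks it had 10.6, 12.2 and 10.1 CPM in controls and 22.3, 22.7 and 23.5 CPM in cKO libraries. These values gave log2 fold changes of 0.73 ± 0.095 (edgeR adjusted p = 7.9e-05) and 1.06 ± 0.096 (edgeR adjusted p = 6.2e-07).

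Snhg3, host of Snora73a and Snora73b, passed the test only at 4.5 weeks. At 4 weeks controls had 4.05, 2.89 and 2.94 CPM and cKO libraries 3.81, 4.04 and 4.14 CPM, so that control library 1 lay among the cKO libraries. Its log2 fold change there was 0.28 with a 95% interval from -0.13 to 0.69 (edgeR adjusted p = 0.28). At 4.5 weeks controls had 2.76, 2.26 and 1.75 CPM and cKO libraries 4.67, 4.13 and 3.99 CPM. That difference was 0.92 ± 0.19 on the log2 scale (edgeR adjusted p = 0.00091).

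Snhg12, which carries both kinds of snoRNA, was among the tightest in its replicates. Controls of 4 weeks had 9.90, 8.89 and 9.08 CPM and cKO libraries 15.3, 17.2 and 17.95 CPM. Controls of 4.5 weeks had 7.76, 8.22 and 7.86 CPM and cKO libraries 16.1, 16.5 and 16.5 CPM. The log2 fold changes were 0.85 ± 0.087 (edgeR adjusted p = 1.3e-05) and 1.04 ± 0.088 (edgeR adjusted p = 3.2e-07).

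Snhg11 stood apart from the other 8 in level and in pattern. It is a long RNA known to be abundant in neurons, and it made up 85.1% to 90.8% of the summed CPM of the 9 members. Its 4-week values were 1051, 1213 and 890 CPM in controls and 978, 1138 and 1081 CPM in cKO, and they overlapped fully. The log2 fold change of 0.02 had a 95% interval from -0.23 to 0.27 (edgeR adjusted p = 0.92), and it turned to -0.09 without control library 3 and to -0.03 without cKO library 2. At 4.5 weeks controls had 809, 969 and 800 CPM and cKO libraries 1091, 1259 and 1080 CPM, a rise of 0.41 ± 0.12 on the log2 scale (edgeR adjusted p = 0.0068). In those same 4.5-week libraries 11 of the 12 neuronal markers fell and none rose, with a median log2 fold change of -1.90. Without Snhg11, the other 8 members summed to 112 to 131 CPM in controls and 171 to 185 CPM in cKO at 4 weeks, and to 98.1 to 102 and 170 to 182 CPM at 4.5 weeks.

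**Figure D2:**
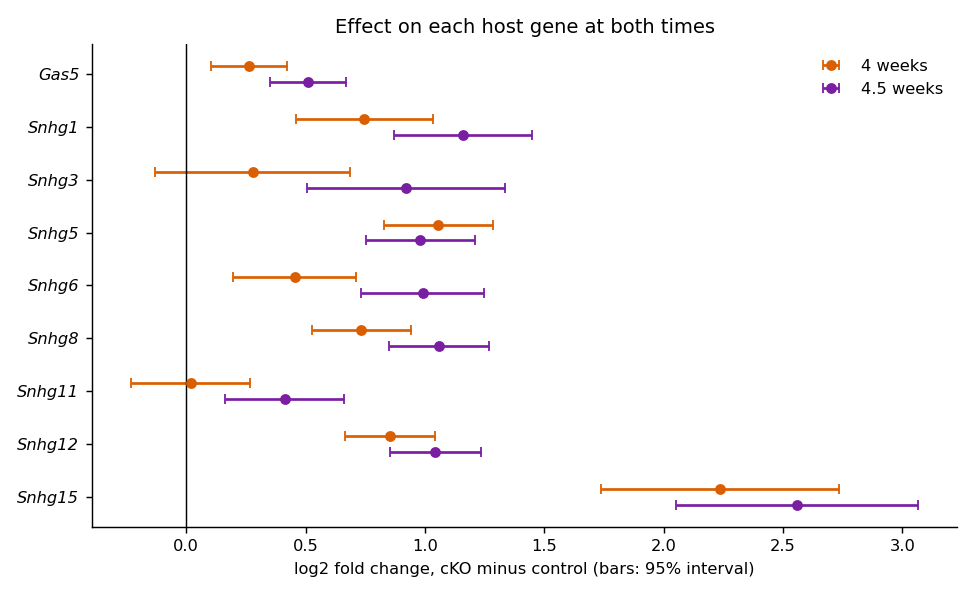
Log2 fold change of cKO over control for each host gene at 4 weeks (orange) and 4.5 weeks (purple), with 95% intervals from the edgeR fit; the vertical line marks no change. Snhg15 lies at 2.24 and 2.56, the interval of Snhg11 at 4 weeks runs from -0.23 to 0.27, and that of Snhg3 from -0.13 to 0.69.

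Whether the effect differed between the times was tested as an interaction. Snhg6 alone passed: its effect was larger at 4.5 weeks by 0.54 ± 0.17 on the log2 scale (edgeR adjusted p = 0.021), where 40.7% of all genes tested were called, 18.7% in that direction and 21.9% in the other. That call was lost in 5 settings, among them without control library 2 of 4 weeks (edgeR adjusted p = 0.057; range over all settings 0.0074 to 0.19), cKO library 3 of 4 weeks (0.052), control library 2 of 4.5 weeks (0.057) or cKO library 2 of 4.5 weeks (0.059). Snhg3 (0.64), Snhg1 (0.41), Snhg11 (0.39), Snhg8 (0.33), Snhg15 (0.32), Gas5 (0.25) and Snhg12 (0.19) had positive differences that did not pass, with edgeR adjusted p from 0.071 to 0.46. For Snhg5 the difference was -0.08, with a 95% interval from -0.40 to 0.24 (edgeR adjusted p = 0.72). The number of members called ran from 0 to 4 when single libraries were left out: 4 without control library 3 of 4 weeks, 2 without cKO library 2 of 4 weeks or without control library 1 or 2 of 4.5 weeks, and 0 without control library 2 or cKO library 3 of 4 weeks or cKO library 2 of 4.5 weeks. This test shares its control and cKO samples with the 2 comparisons above.

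The controls themselves were not level. Gas5 was lower in the 4.5-week controls than in the 4-week controls by 0.34 on the log2 scale (edgeR adjusted p = 0.0092), Snhg8 by 0.43 (edgeR adjusted p = 0.011) and Snhg6 by 0.38 (edgeR adjusted p = 0.048). The Snhg6 call was lost in 14 of 22 alternatives, among them limma-voom (adjusted p = 0.066), no filter on low counts (edgeR adjusted p = 0.088) and 10 of the 12 single libraries left out, all but cKO libraries 1 and 2 of 4 weeks (edgeR adjusted p from 0.055 to 0.17 in those 10). None of the 9 was higher, and 6 had all 3 controls of 4.5 weeks below all 3 of 4 weeks, as 17.4% of all genes tested did (19.8% had all 3 above). By the test, 7.21% of all genes were lower and 9.53% higher. Higher calls were thus 56.93% of the calls between control groups, and 45.72% with upper quartile scaling. The 4-week controls were male and the 4.5-week controls female, so time and sex cannot be told apart here. With a term for sex no member was called (1 at an unadjusted p under 0.05). Nor was any other gene tested called with that term, against 3227 genes without it. Without control library 1 or control library 2 of 4 weeks 1 member was called, where 1313 and 1476 of all genes were. Leaving out control libraries 1 and 2 of 4.5 weeks together keeps 1 control there. The differences were then -0.35 for Gas5, -0.55 for Snhg8 and -0.25 for Snhg6.

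Within the 4-week groups many members had their lowest value in the same library. In the 4-week cKO group 8 of the 9 had their lowest value in library 1, the exception being Snhg8, which was highest there. That library also had the highest oligodendrocyte sum of its group, 18752 CPM against 13763 and 15374 CPM. In the 4-week controls 6 of the 9 were lowest in library 3. At 4.5 weeks no library held the lowest value of more than 4 members, in either group. Over the 12 libraries the Pearson correlation of log2 CPM between pairs of the 8 members other than Snhg11 ran from 0.778 to 0.986 (28 pairs), and that between Snhg11 and each of the others from 0.583 to 0.743 (8 pairs). These are descriptions over the same 12 libraries, which share group and depth.

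Levels can be compared between genes only per length, and the order depended in part on the length used: the union of annotated exons or, as an alternative chosen after seeing the data, the longest annotated transcript (both from GENCODE M21, which may not be the annotation the counts rest on). Per kilobase of exon union in the 4-week controls, Snhg11 had the highest level at 123.4 ± 19.0 CPM per kb (SD, n = 3). Gas5 followed at 18.9 ± 2.05 and Snhg8 at 17.3 ± 1.83 CPM per kb, which lie within their spread, whereas per kb of longest transcript Gas5 had 27.8 ± 3.01 and Snhg8 19.0 ± 2.01, which do not. Next by exon union were Snhg6 (7.22 ± 0.553), Snhg5 (4.76 ± 0.459), Snhg12 (3.87 ± 0.222), Snhg3 (3.34 ± 0.662), Snhg1 (2.77 ± 0.181) and Snhg15 (1.12 ± 0.297 CPM per kb), where the spread of Snhg3 reached both of its neighbours. The order of the 9 means in this group was the same with either length. In the 4.5-week cKO group it was not: Snhg8 stood at 26.7 and Gas5 at 21.2 CPM per kb of exon union, but at 29.4 and 31.2 CPM per kb of longest transcript. Snhg15 in that group had 5.49 CPM per kb of exon union, between Snhg1 (5.66) and Snhg3 (4.32), and 11.1 CPM per kb of longest transcript, between Snhg5 (11.5) and Snhg12 (10.6).

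The genes most like Gas5 over the 12 libraries, by Pearson r of log2 CPM among all genes tested, were those of the ribosomal proteins Rpl14 (0.980), Rpl24 (0.977) and Rpl21 (0.977). For Snhg11 they were A230057D06Rik (0.938), the unnamed gene ENSMUSG00000117653.2 (0.931) and 8430422M14Rik (0.907). The unnamed gene had few counts, at 0.11 to 0.52 CPM over the libraries. By Spearman rho the leading genes were Llph and 2310039H08Rik (0.986 each) and Dtymk (0.979, tied with Rpl24) for Gas5, and 9130221H12Rik (0.930), Tctn3 and Apool (0.923 each, tied with 8430422M14Rik) for Snhg11.

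Neighbouring genes were read because the library kit keeps no strand information, and reads of overlapping genes therefore cannot be separated. Zbtb37 overlaps the span of Gas5. It fell by 0.49 on the log2 scale at 4 weeks (edgeR adjusted p = 0.011) and was at -0.02 at 4.5 weeks (edgeR adjusted p = 0.93), while Gas5 rose at both. Mcmdc2, which overlaps Snhg6, had log2 values of -0.57 and 0.14 and passed at neither time. It had few counts, at 0.25 to 0.71 CPM over the libraries. The other neighbours went both ways. Slc3a2 (heavy chain of amino acid transporters), next to Snhg1, rose by 0.45 and 0.79 at 4 and 4.5 weeks, and Rcc1 (chromatin-bound exchange factor of Ran), next to Snhg3, by 0.45 and 0.96. Myo1g, a blood-cell myosin beside Snhg15, rose by 2.003 and 4.45 from 0.44 to 1.01 CPM in controls. Prss12 (neurotrypsin), beside Snhg8, fell by 0.28 and 1.88, and Ralgapb, beside Snhg11, fell by 0.27 and 0.51, while Snhg17 on its other side was at 0.27 (edgeR adjusted p = 0.17) and rose to 0.95. Syncrip, beside Snhg5, was at -0.10 (edgeR adjusted p = 0.16) and then rose by 0.12. Beside Snhg12, Rab42 (0.18 to 0.96 CPM in controls) rose by 2.02 and was then at 0.52 (edgeR adjusted p = 0.16). Trnau1ap, on the other side, rose by 0.26 and was then at 0.16 (edgeR adjusted p = 0.13). Phactr4, beside Snhg3, and Sgk3, beside Snhg6, fell by 0.27 and 0.42 at 4 weeks and rose by 0.33 and 1.36 at 4.5 weeks, and Wdr74, beside Snhg1, rose by 0.28 and was then at -0.12 (edgeR adjusted p = 0.17).

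**Figure D3:**
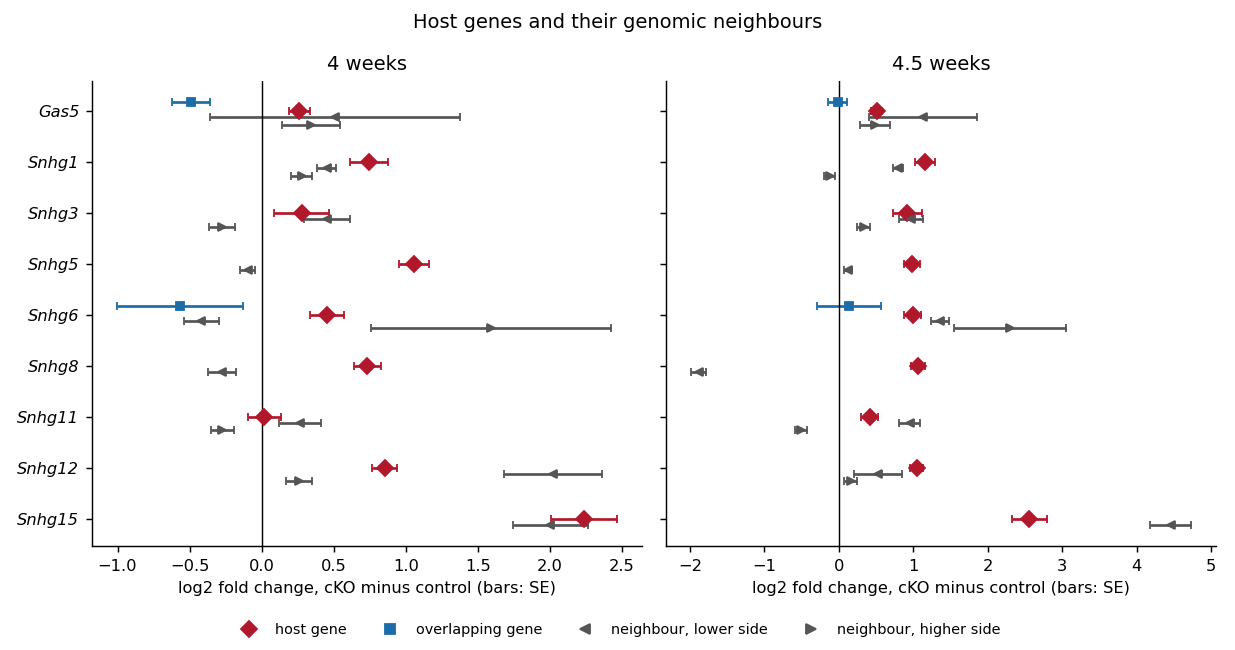
Log2 fold change of cKO over control for each host gene (red diamonds), reported genes that overlap its span (blue squares) and the nearest annotated gene on either side, where it was tested (grey triangles, pointing to the side), at 4 weeks (left) and 4.5 weeks (right, wider scale). Bars are SE. Gm22985 beside Snhg5, Gm9369 beside Snhg8 and Gm24000 beside Snhg15 were not tested, so those sides are blank. Gas5 lies to the right of 0 at both times, whereas its overlapping gene Zbtb37 lies at -0.49 and -0.02.

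Other noncoding hosts of small RNAs were followed as a list of 17 symbols, of which 15 were in the tables and 13 were tested. At 4 weeks 7 of the 13 rose and 1 fell (median log2 0.67), and at 4.5 weeks 7 rose and 2 fell (median 0.65). These are 8 and 9 called of 13, beside 37.2% and 65.9% of all genes tested in either direction. The share at 4.5 weeks is thus near that over all genes. Risers of smallest p were Zfas1 (0.74 and 1.499 at 4 and 4.5 weeks), Dancr (1.03 and 1.13), Snhg20 (0.93 and 0.70) and Epb41l4aos (0.67 and 1.41). Rian, a host of imprinted C/D snoRNAs, fell by 0.19 and 0.61, and Snhg14, host of the Prader-Willi snoRNA clusters, was at -0.08 (edgeR adjusted p = 0.32) and then fell by 0.32. Not passing at 4.5 weeks were Snhg18 (0.38), Mirg (-0.24), Meg3 (0.17) and Mir22hg (0.22), with edgeR adjusted p from 0.087 to 0.22. The count of 8 called at 4 weeks became 5 without cKO library 2 and with a term for sex.

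Protein-coding hosts, most of them genes for ribosomal proteins and translation factors, moved mostly upwards. Of 25 tested, 17 rose and none fell at 4 weeks (median log2 0.40), and 19 rose and 4 fell at 4.5 weeks (median 0.84). Over all genes tested, 20.1% rose and 17.2% fell at 4 weeks, and 33.3% rose and 32.6% fell at 4.5 weeks. Genes of smallest p were Ncl (nucleolin; 0.55 and 0.48), Rack1 (a scaffold of the small ribosomal subunit; 0.62 and 1.62), Ppan (0.81 and 0.79), Rpl5 (0.43 and 1.17) and Rpl10 (0.47 and 1.48). The 4 that fell at 4.5 weeks were Nop56 (by 0.65), Eif4a2 (by 0.68), Hspa8 (by 0.54) and Dkc1 (by 0.37); Nop58 (-0.07) and Tcp1 (-0.07) did not pass there (edgeR adjusted p = 0.6 and 0.2).

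SnoRNP core and assembly proteins (19 tested) gave 7 risers and no faller at 4 weeks (median log2 0.16), and 5 risers and 8 fallers at 4.5 weeks (median -0.07). These are 7 and 13 called of 19, shares near those over all genes tested (37.2% and 65.9% in either direction). Ruvbl2 (0.93 and 0.38), an ATPase of the R2TP assembly complex, and Nhp2 (0.70 and 0.51), a core H/ACA protein, rose at both times. Nufip1, an assembly factor, rose by 0.52 at 4 weeks and was at 0.23 at 4.5 weeks (edgeR adjusted p = 0.074). Rpap3 and Ruvbl1, further R2TP subunits, fell by 1.02 and 0.68 at 4.5 weeks, as did the C/D core protein Nop56; at 4 weeks they were at -0.16 and -0.01 and did not pass. With a term for sex the 4-week count of this list was 3.

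Of 18 factors of nonsense-mediated decay and decapping, 3 rose and 1 fell at 4 weeks (median log2 0.05), and 8 rose and 5 fell at 4.5 weeks (median 0.17), that is 4 and 13 called, beside the same shares over all genes. Eif4a3 (0.65 and 0.37) and Magoh (0.44 and 0.27), both of the exon junction complex, and Upf3a (0.24 and 0.28) rose at both times. Smg1, the kinase that phosphorylates Upf1, fell by 0.22 at 4 weeks and rose by 0.22 at 4.5 weeks. Dcp2 (decapping enzyme) fell by 0.94 and Upf2 by 0.58 at 4.5 weeks, whereas Xrn1 (exonuclease that follows decapping) rose by 0.49. The 4-week count of 4 became 2 without cKO library 3, with each time fitted alone and with a term for sex.

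Messenger RNAs of the TOP class rose at both times. Of 84 cytosolic ribosomal protein genes, 80 rose and none fell at 4 weeks (median log2 0.46), and 81 rose and 1 fell at 4.5 weeks (median 1.01). The one that fell was Rpl3l, a paralogue of striated muscle, named after its values were seen; control library 2 of 4.5 weeks is the one that held more muscle markers. Between the control groups 73 of the 84 were lower at 4.5 weeks (median -0.37), beside 7.21% of all genes tested. Time and sex cannot be told apart there. With a term for sex edgeR called 0 of the 84 (47 lower at an unadjusted p under 0.05). It also called 0 of all genes tested with that term, against 3227 without it. Of 21 other TOP genes 18 rose at 4 weeks (median 0.41) and 20 at 4.5 weeks (median 0.72), with none lower. Npm1 (0.56 and 0.80), Eif3e (0.57 and 0.84), Eef1a1 (0.50 and 1.61) and Tpt1 (0.52 and 1.37) were, with Rack1, those of smallest p; Nap1l1 (0.04 and 0.09) passed at neither time, and Eef2 (-0.05) and Hnrnpa1 (0.07) did not pass at 4 weeks. Among 12 regulators of TOP translation, Eif4ebp1 (a repressor of cap-dependent translation that mTOR inactivates) rose by 2.49 and 3.30 and Mtor fell by 0.44 and 0.92, while Eif4ebp2 was at 0.01 (edgeR adjusted p = 0.88) and then rose by 0.67. At 4 weeks Eif4ebp1 and Mtor were the only regulators called (2 of 12), and at 4.5 weeks 3 rose and 6 fell (9 of 12). Over all genes tested, 37.2% and 65.9% were called in either direction. The lists share genes: Rack1, Eef2 and Eef1b2 stand among both protein-coding hosts and TOP genes, Nop56, Nop58 and Dkc1 among both protein-coding hosts and snoRNP proteins, and Meg3 among both noncoding hosts and neuronal markers.

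**Figure D4:**
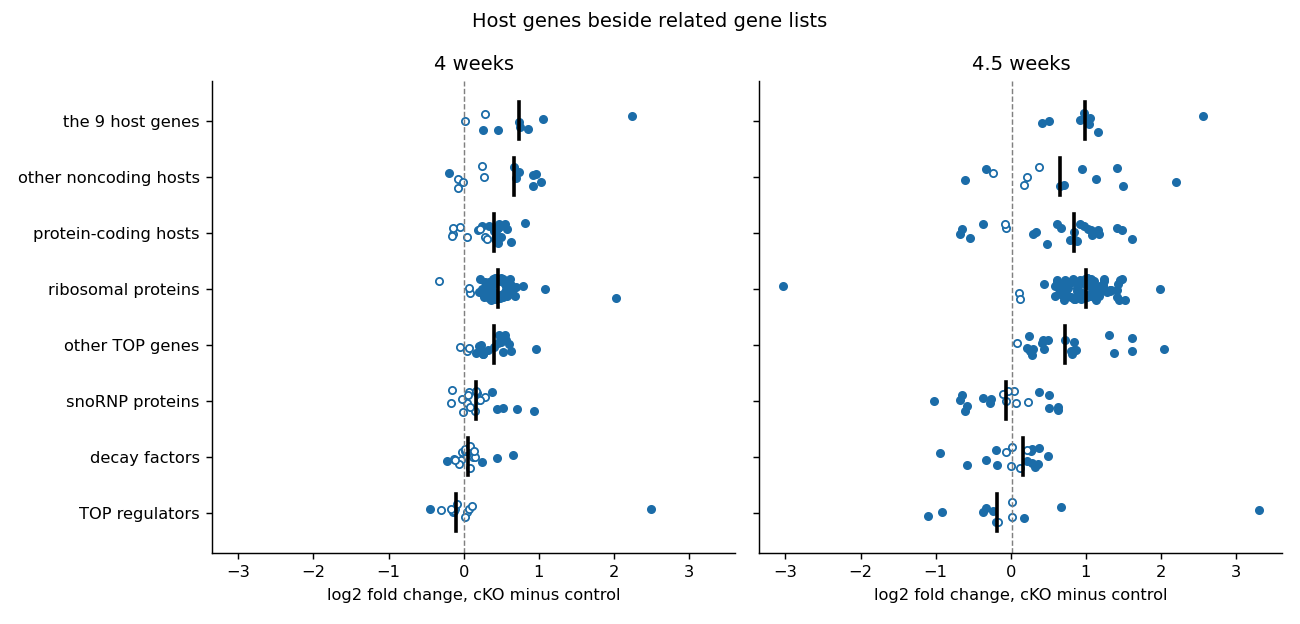
Log2 fold change of cKO over control for the 9 host genes and 7 related lists at 4 weeks (left) and 4.5 weeks (right); filled points passed the test, open points did not, black bars are medians and the dashed line is the median of all genes tested. Points are spread vertically only to separate them. The host genes have medians of 0.73 and 0.99 and the ribosomal proteins of 0.46 and 1.01.

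The snoRNAs themselves were not measurable in these libraries. Of the 31 in the hosts' introns 27 were listed in the tables, and only Snora73a and Snora73b, in Snhg3, had any count: 43 in all 12 libraries together and at most 7 in one. Of all 112 rows named Snord, Snora or Scarna, 9 had a count and none passed the filter. A change in spliced host RNA therefore stands here without a value for its snoRNA.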

How the data were processed

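Spinal cord libraries of 12 mice (4 groups of 3) were used. The values are estimated counts per gene, which the authors deposited in 2 tables, 1 for each time; STAR, RSEM and the build mm39 are named per the submitters' processing notes, while versions, parameters and the annotation are not given in the sources used here. Between 3.25% and 3.81% of the values in a library were not whole, and all were rounded. Columns were assigned to samples by their names within each table. Sex was read from Xist and Y-linked counts. The labels state separate animals.

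Genes were filtered with filterByExpr by group in edgeR 4.0.16 (R 4.3.3, limma 3.58.1), scaled by TMM and fitted over all 12 libraries in one quasi-likelihood model; calls are at a Benjamini-Hochberg adjusted p under 0.05 over 19278 genes. CPM use TMM-scaled totals, and log2 CPM for correlations add a prior count of 2. Reference sequences and lengths came from GENCODE M21 and RefSeq (GRCm38.p6); no coordinates were converted to mm39. Code was tested on simulated data. Alternatives, described in the closing section, covered scaling, filters, DESeq2 1.42.0, limma-voom, a sex term, a replicate block and left-out libraries; leaving out the female cKO libraries of 4 weeks, and levels per longest transcript, were chosen after seeing the data. Named genes are the members, the 3 called genes of smallest p per list and time, exceptions of 4 or fewer, neighbours (Serpinc1, Cenpl and Tcf24 are plotted only), and the 3 genes most like Gas5 and Snhg11. The members and lists were chosen with earlier results of these data known. Snhg4, Snhg16 and Itgam were not analysed here, and 1 neighbouring gene is not reported here.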

Additional observations from a re-analysis of the deposited data

Results flagged for a closer look

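Counted here are the 9 host genes and 57 others named from the lists and neighbours. Genes given only for their likeness to Gas5 or Snhg11, and genes named only in passing, are not among them. In 36 of those counted the effect at 4.5 weeks differed from that at 4 weeks by the interaction test (edgeR adjusted p under 0.05). Of all genes tested, 40.7% were called. Many of the 57 were named for a small p in the effects at 4 or 4.5 weeks, so the count cannot be weighed against that share. Each value is the difference on the log2 scale, positive where the change in the libraries labelled cKO was more upward at 4.5 weeks. Snhg6 was the 1 host gene of the 9 among the 36, at 0.54. Of the other noncoding hosts, Zfas1 stood at 0.76, Epb41l4aos at 0.74, Snhg17 at 0.68, Snhg14 at -0.25 and Rian at -0.42. Protein-coding hosts and TOP genes with positive differences were Eef1a1 (1.12), Rpl10 (1.02), Rack1 (0.99), Tpt1 (0.86), Rpl5 (0.74), Eef2 (0.34), Eif3e (0.27) and Npm1 (0.25), and hosts with negative ones were Tcp1 (-0.27), Hspa8 (-0.40), Eif4a2 (-0.54) and Nop56 (-0.69). Assembly factors were negative: Ruvbl2 at -0.55, Ruvbl1 at -0.67 and Rpap3 at -0.85. Among decay factors Smg1 (0.43) and Xrn1 (0.35) were positive, and Eif4a3 (-0.28), Upf2 (-0.46) and Dcp2 (-0.82) negative. Eif4ebp2 stood at 0.65 and Mtor at -0.48. Of the neighbouring genes, Myo1g (2.45), Sgk3 (1.77), Phactr4 (0.61), Slc3a2 (0.34) and Syncrip (0.22) were positive, and Wdr74 (-0.40), Rab42 (-1.50) and Prss12 (-1.61) negative. Outside the 36, the genes most like Gas5 by Pearson r also passed: Rpl21 (0.42), Rpl14 (0.33) and Rpl24 (0.27). Of those most like Snhg11, 8430422M14Rik (0.73) and A230057D06Rik (0.56) passed, and ENSMUSG00000117653.2 (0.67, edgeR adjusted p = 0.5) did not. Both effects behind each difference use their own control group, and these groups differ in sex.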

How the results depend on the processing

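Members called at 4.5 weeks numbered 9 under all 24 settings, and none was called lower at either time. At 4 weeks 7 were called in the main analysis, 6 to 7 without single libraries, and 5 with a sex term or without the 2 female cKO libraries. The difference of effects gave 1 call in the main analysis, 2 with DESeq2, with a replicate block or without the female cKO libraries, and 0 to 4 without single libraries; at 0 calls, 2 to 4 passed an unadjusted p under 0.05. Between the control groups 3 calls became 5 with DESeq2, 0 with a sex term and 1 to 3 without single libraries. Calls among all genes went there from 3227 to 3998 with DESeq2 and to 0 with a sex term. The cause was not tested. Snhg11 passed for the difference with DESeq2 and the replicate block. No pairing by replicate number was seen (same-number correlations of deviations from -0.165 to 0.057, 1 of 6 highest with its own number). With 3 libraries per group this check cannot exclude a pairing. The block changed no other member call for cKO against control.

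Of 837 member values under the alternatives, 788 kept direction and side of the threshold, 31 lost the call, 15 gained it and 3 turned: Snhg11 at 4 weeks (-0.0884 to 0.13 without single libraries) and Snhg15 between control groups (0.0553 with a sex term). Of 3539 values of the 57 other genes, 3350 kept direction and side of the threshold, 152 lost the call, 14 gained it and 23 turned. None of the values that turned was called. At 4 weeks those that turned were Eif4ebp2 (-0.001 with DESeq2 size factors, -0.0014 with DESeq2), Ruvbl1 (0.0012 with at least 1 CPM in 3 libraries, 0.0274 with a sex term, 0.0134 without the female cKO libraries), Mirg (0.1022 and 0.0881 under the latter 2), Mcmdc2 (0.0157 and 0.001 likewise) and Nap1l1 (-0.0060 without the female cKO libraries). At 4.5 weeks Zbtb37 turned to 0.0022 with the 1 CPM filter and to 0.10 without control libraries 1 and 2. Leaving out single libraries, with which the direction also turned, gave Eif4ebp2 -0.0227 to 0.0507, Ruvbl1 -0.0383 to 0.0332 and Mirg -0.0884 to 0.0408 at 4 weeks, and Zbtb37 -0.10 to 0.0882 and Mcmdc2 -0.0438 to 0.3927 at 4.5 weeks. No scaling moved the median of all genes by over 0.1. Depth limits Snhg15 and Snhg3 most, with as few as 45 and 78 counts in a library, against at least 2082 for Gas5. By list, the 4-week count of regulators of TOP translation moved from 2 to 4 with DESeq2 and without cKO library 1.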
